A study of Danio rerio with 8 samples.

Results

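The *slc25a* genes encode the mitochondrial carrier family, and their transcripts were followed in whole zebrafish embryos at 8 hpf (hours post-fertilization), a stage in gastrulation, with and without the microRNA miR-34a. Every Ensembl gene in the counts whose symbol begins with *slc25a* was taken, in any letter case, which gave 59 genes of the 32520 counted, covering 42 carrier numbers. The libraries came from 4 pools of *miR-34a-/-* embryos and 4 pools of wild-type embryos, and both lines were kept in the *casper* background, a nearly pigment-free strain. The mutants were maternal-zygotic, lacking the microRNA in egg and embryo alike, and descended from a deletion made with guide RNAs on both sides of the *miR-34a* gene. The wild-type embryos were not their siblings, so differences in genetic background between the lines cannot be told apart from the loss of *miR-34a*. The study staged embryos by form and fertilization time but allows that mutants may develop on a somewhat different course. A difference in stage cannot be told apart either. Each pool held 30 embryos according to the methods, while the labels allow between 30 and 50. The comparison asked which carrier transcripts differed in level when *miR-34a* was absent.

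Mitochondrial carriers are small proteins of the inner membrane that are built from repeated modules and exchange or co-transport particular small molecules, such as ADP and ATP, phosphate, citrate, amino acids, carnitine esters or cofactors. They link the enzymes of the matrix with those of the cytosol. A few members sit elsewhere, in peroxisomes or in the outer mitochondrial membrane. The roles given here for single carriers come from work on mammals and yeast. Because many carriers kept a pair of copies after the genome duplication of teleost fish, the 59 genes include copies with the letters a and b. In the gene names used here, 12 of the 59 share their symbol with another of the 59. These are told apart by their Ensembl identifiers.

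Reads were counted for most of the family at this stage. At least 1 read was counted for 58 of the 59 genes. Of these, *slc25a15a*, *slc25a1* (ENSDARG00000080000), *slc25a38* (ENSDARG00000059805) and *slc25a6* had only 1 read each over all libraries. The filter on low counts left 42 carriers for the edgeR quasi-likelihood test, with Benjamini-Hochberg adjustment over all 13842 genes tested. Of all 32520 genes, 7300 had no count. At an adjusted p-value under 0.05, 14 carriers were higher and 10 were lower in *miR-34a-/-* embryos, and 18 were not called. The 24 called genes were 57.1% of the carriers tested, while 45.4% of all genes tested were called. The higher carriers were 33.3% of those tested, against 23% of all genes, and the lower carriers were 23.8%, against 22.4% of all genes. The median log2 fold change of the tested carriers was 0.03 and that of all tested genes was -0.0012. Among the 21 tested carriers with the higher mean CPM, 11 were higher and 4 were lower in *miR-34a-/-*, and among the other 21, 3 were higher and 6 were lower. Shares of all genes called at like CPM were not computed, so this split is not a result about abundant carriers. Changes were small: 19 of the 24 called carriers differed by less than 1.5-fold. With a fold change over 1.5 as a second criterion, 2 carriers were higher and 3 were lower, which is 11.9% of those tested, against 17.6% of all genes. The median size of the log2 fold change, without its sign, was 0.29 for carriers and 0.23 for all genes. The *miR-34a-/-* and wild-type libraries did not overlap in CPM (a gene's counts scaled to 1000000 counts of its library, with edgeR's TMM factor of that library) for 20 of the 42 carriers, or 47.6%, against 38.8% of all genes. The count of higher carriers dropped to 9 when wild-type replicate 1 or wild-type replicate 3 was left out, and DESeq2, which tested 52 carriers, called 8 higher and 9 lower, 1 of them a carrier that edgeR had not tested, while it called 28% of all genes. Of the 24 calls, 15 held without each library in turn, 8 higher and 7 lower.

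**Figure D1:**
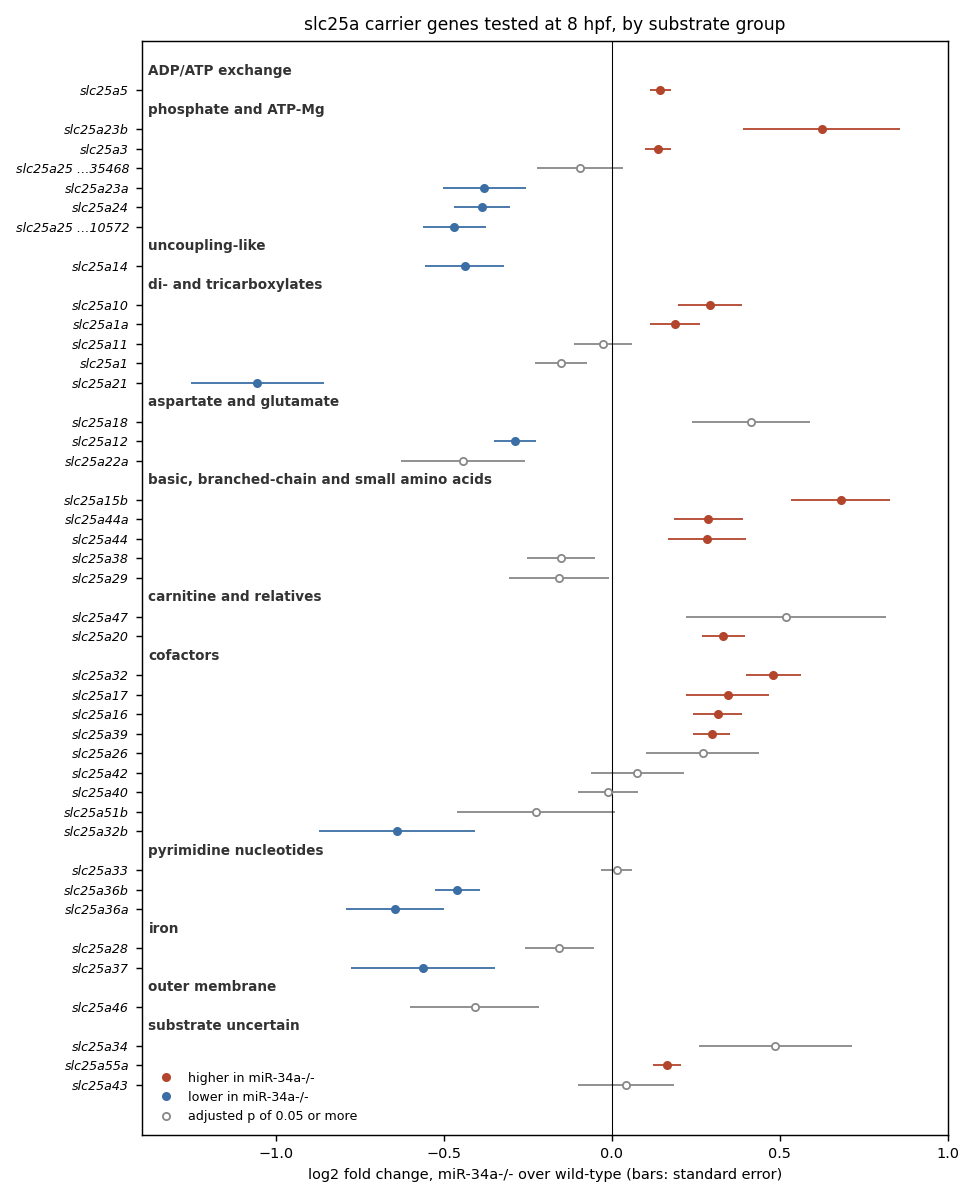
Log2 fold change (x axis, *miR-34a-/-* over wild-type) of 41 of the 42 tested carrier genes, grouped down the page by substrate, with bars for the standard error. Red points are the 14 genes higher in *miR-34a-/-*, blue points the 10 lower, and open points 17 with an adjusted p-value of 0.05 or more. The cofactor and carnitine groups lie mostly right of 0, the iron and pyrimidine nucleotide groups mostly left, and the fold changes run between -1.06 and 0.68.

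The *miR-34a-/-* libraries held 8159574 to 15724724 counts (median 10350116) and the wild-type libraries 7132045 to 11191023 counts (median 9725207), so that 1 count was worth 0.0640 to 0.122 CPM in *miR-34a-/-* and 0.0879 to 0.140 CPM in wild-type. CPM is not divided by transcript length, so levels are compared between genotypes for 1 gene and not between genes. The *miR-34a* gene itself had 0 counts in all 8 libraries, and the genotype labels could not be checked by it. Calls of marker genes are to be read beside those of all genes tested, of which 22.4% were lower and 23% higher. Of 11 gastrula marker genes, 7 were lower and 2 were higher in *miR-34a-/-*. Their summed CPM was 2441 to 2684 in *miR-34a-/-* and 2685 to 2787 in wild-type. Summed markers overlapped between the genotypes for the enveloping layer, with 5 genes (10461 to 11080 CPM in *miR-34a-/-* and 10149 to 11566 CPM in wild-type), for the yolk syncytial layer, with 5 genes (878 to 903 CPM in *miR-34a-/-* and 877 to 1108 CPM in wild-type), and for oocytes and germ line, with 6 genes (128 to 149 CPM in *miR-34a-/-* and 129 to 155 CPM in wild-type). Single genes of these lists still differed: 1 enveloping layer gene was lower, 1 yolk syncytial gene was higher (*hnf4a*) and 1 lower (*apoa1b*), and of the 6 oocyte and germ line genes 3 were higher (*zp3b*, *dazl* and *buc*) and 1 was lower (*ddx4*), with a median log2 fold change of 0.41. Genes of later tissues that a gastrula should lack, 6 in all, each averaged under 1 CPM, with *hbbe1.1* and *crygm2d1* at 2 counts over all libraries. The part of the markers in the carrier results was not tested. In pooled embryos, fewer cells of a kind and less RNA per cell cannot be told apart.

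Together the 59 carriers took 0.405% to 0.418% of all counts in *miR-34a-/-* libraries and 0.378% to 0.385% in wild-type libraries. Their summed level was 4119 ± 38.05 CPM in *miR-34a-/-* and 3799 ± 24.7 CPM in wild-type (SD, n = 4 each), a ratio of 1.08. *slc25a5* alone supplied 57.7% to 59.3% of these counts in *miR-34a-/-* and 56.9% to 57.8% in wild-type. Without it, the other 58 genes summed to 1716 ± 16.9 CPM in *miR-34a-/-* and 1623 ± 13.3 CPM in wild-type (SD, n = 4 each). The sums do not overlap between the genotypes, with or without *slc25a5*. The largest rises among the other 58 genes were those of *slc25a3* (ENSDARG00000025566) and *slc25a55a*. On average *slc25a3* had 603 CPM in *miR-34a-/-* and 548 CPM in wild-type, and *slc25a55a* had 298 CPM in *miR-34a-/-* and 266 CPM in wild-type. Rises and falls of the remaining genes largely offset each other. In *miR-34a-/-* and wild-type, cofactor carriers summed to 193 and 162 CPM on average, and carnitine carriers to 81.0 and 64.3 CPM. Pyrimidine nucleotide carriers summed to 184 CPM in *miR-34a-/-* and 197 CPM in wild-type. Aspartate and glutamate carriers, grouped without *slc25a55a*, summed to 50.8 CPM in *miR-34a-/-* and 60.5 CPM in wild-type. The sums thus do not show a rise spread evenly over the family.

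Of the ADP/ATP carriers, which exchange matrix ATP for cytosolic ADP, only *slc25a5* was tested, and it was slightly higher in *miR-34a-/-*. It had 2415, 2367, 2467 and 2366 CPM in *miR-34a-/-*, against 2190, 2202, 2167 and 2145 CPM in wild-type. Every *miR-34a-/-* library lay above every wild-type library, and the difference was 0.14 on the log2 scale (SE 0.03, adjusted p = 0.00052, edgeR). The other ADP/ATP carriers had almost no reads, with no more than 4 counts of *slc25a4* and 1 count of *slc25a6* in any library. The *slc25a5* transcript was thus the only one of this group with more than a few reads at 8 hpf.

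Of the 8 phosphate and ATP-Mg carriers, 6 were tested, with 2 higher, 3 lower and 1 not called. Among all genes tested, calls also went both ways, with 23% higher and 22.4% lower. The phosphate carrier *slc25a3* (ENSDARG00000025566), which supplies phosphate for ATP synthesis, had 609, 629, 589 and 583 CPM in *miR-34a-/-*, against 574, 529, 536 and 553 CPM in wild-type. It was above wild-type in every *miR-34a-/-* library, by 0.14 on the log2 scale (SE 0.04, adjusted p = 0.0048, edgeR). The 5 other tested genes of this group encode calcium-regulated carriers that exchange ATP-Mg for phosphate and so set the size of the adenine nucleotide pool in the matrix. *slc25a24* had 28.2, 20.8, 26.01 and 25.9 CPM in *miR-34a-/-*, against 30.7, 32.4, 34.3 and 34.2 CPM in wild-type (log2 fold change -0.39, SE 0.08, adjusted p = 0.00044, edgeR). *slc25a25* (ENSDARG00000010572) had 22.7, 17.2, 18.3 and 21.1 CPM in *miR-34a-/-*, against 25.7, 27.5, 25.9 and 31.8 CPM in wild-type (log2 fold change -0.47, SE 0.09, adjusted p = 0.00017, edgeR). Both were lower without overlap. The second copy under the symbol *slc25a25* (ENSDARG00000035468) averaged 9.73 ± 1.27 CPM in *miR-34a-/-* and 10.3 ± 1.37 CPM in wild-type (SD, n = 4 each) and was not called, with a log2 fold change of -0.09 (SE 0.13).

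The *slc25a23* copies, also ATP-Mg carriers, were called in opposite directions. *slc25a23a* had 11.1, 9.27, 6.84 and 10.3 CPM in *miR-34a-/-*, against 13.6, 12.3, 11.8 and 11.9 CPM in wild-type, lower without overlap (log2 fold change -0.38, SE 0.12, adjusted p = 0.014, edgeR). Without *miR-34a-/-* replicate 3, its lowest library, the adjusted p was 0.058. *slc25a23b* had 3.75, 3.27, 2.32 and 3.84 CPM in *miR-34a-/-*, against 1.71, 2.08, 1.85 and 3.35 CPM in wild-type. It was higher by 0.62 on the log2 scale (SE 0.23, adjusted p = 0.030, edgeR), although wild-type replicate 4 lay inside the *miR-34a-/-* range. That call was lost without any of 5 libraries, *miR-34a-/-* replicates 1 and 4 and wild-type replicates 1, 2 and 3, at adjusted p-values between 0.062 and 0.11, and under DESeq2 (adjusted p = 0.13).

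Among the uncoupling-like carriers, *slc25a14*, an inner membrane anion carrier related to the uncoupling proteins, was lower. It had 8.76, 9.45, 9.65 and 8.58 CPM in *miR-34a-/-*, against 11.98, 10.8, 14.5 and 11.6 CPM in wild-type. No library overlapped, and the difference was -0.44 on the log2 scale (SE 0.12, adjusted p = 0.0033, edgeR). Its relative *slc25a27* fell below the filter, with at most 13 counts in a library.

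The di- and tricarboxylate carriers connect the citric acid cycle and lysine breakdown with the cytosol. Of their 7 genes 5 were tested, with 2 higher, 1 lower and 2 not called, where 23% of all genes tested were higher and 22.4% lower. *slc25a21*, the carrier of oxoadipate, had the largest fold change of the 42 carriers tested. It had 2.82, 3.27, 1.95 and 2.82 CPM in *miR-34a-/-*, against 3.99, 7.07, 5.36 and 6.56 CPM in wild-type. The highest *miR-34a-/-* library stayed below the lowest wild-type library, and the difference was -1.06 on the log2 scale (SE 0.20, adjusted p = 8.4e-05, edgeR), a fold of 0.481. *slc25a10* (ENSDARG00000025074), the dicarboxylate carrier that exchanges malate or succinate for phosphate, was higher. It had 16.6, 19.3, 19.9 and 17.02 CPM in *miR-34a-/-*, against 13.5, 15, 15.6 and 14.9 CPM in wild-type (log2 fold change 0.29, SE 0.10, adjusted p = 0.014, edgeR). The libraries did not overlap, but without wild-type replicate 1 the adjusted p was 0.051, as it was under DESeq2. The citrate carrier, which exports citrate for lipid synthesis, had 2 tested copies. *slc25a1a* was called higher, with 29.4, 28.3, 32.6 and 28.4 CPM in *miR-34a-/-*, against 26.9, 25.7, 26.3 and 24.7 CPM in wild-type (log2 fold change 0.19, SE 0.08, adjusted p = 0.044, edgeR). The libraries did not overlap, yet the call was lost without any of *miR-34a-/-* replicates 1 and 3 and wild-type replicates 2, 3 and 4 (adjusted p between 0.068 and 0.12), and under DESeq2 (adjusted p = 0.12), upper-quartile factors (0.070) and no filter (0.065). The copy under the symbol *slc25a1* (ENSDARG00000076381) averaged 57.5 ± 3.89 CPM in *miR-34a-/-* and 64.5 ± 9.69 CPM in wild-type (SD, n = 4 each) and was not called. The oxoglutarate carrier *slc25a11*, of the malate-aspartate shuttle, averaged 22.3 ± 1.87 CPM in *miR-34a-/-* and 22.8 ± 1.26 CPM in wild-type (SD, n = 4 each) and was not called either.

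Of the aspartate and glutamate carriers, 3 of 5 genes were tested and 1 was lower, where 22.4% of all genes tested were lower. *slc25a12*, which brings glutamate into the matrix in exchange for aspartate and is the other carrier of the malate-aspartate shuttle, had 40.99, 41.97, 41.8 and 39.5 CPM in *miR-34a-/-*, against 48.04, 46.8, 53.7 and 51.6 CPM in wild-type. All *miR-34a-/-* libraries lay below all wild-type libraries (log2 fold change -0.29, SE 0.06, adjusted p = 0.00050, edgeR). The glutamate carriers *slc25a18* and *slc25a22a* lay just outside the threshold on opposite sides of 0. *slc25a18* had 3.96, 5.63, 4.76 and 4.29 CPM in *miR-34a-/-*, against 3.54, 3.68, 3.25 and 3.49 CPM in wild-type, without overlap (log2 fold change 0.41, SE 0.18, adjusted p = 0.056, edgeR). *slc25a22a* averaged 4.93 ± 0.769 CPM in *miR-34a-/-* and 6.61 ± 2.02 CPM in wild-type (SD, n = 4 each; log2 fold change -0.44, SE 0.19, adjusted p = 0.052, edgeR). Neither was called. *slc25a13*, a second aspartate-glutamate carrier known from liver in mammals, had at most 4 counts in a library.

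Of the carriers of basic, branched-chain and small amino acids, 5 of 8 genes were tested, with 3 higher, 0 lower and 2 not called. Among all genes tested, 23% were higher and 22.4% lower, so these few calls give no direction for the group. *slc25a15b* encodes a carrier of ornithine, which enters the matrix for the urea cycle. It had 8.24, 12.4, 10.7 and 8.45 CPM in *miR-34a-/-*, against 6.85, 5.66, 6.60 and 5.44 CPM in wild-type. Every *miR-34a-/-* library was above every wild-type library, and its rise of 0.68 on the log2 scale (SE 0.15, adjusted p = 0.00044, edgeR), a fold of 1.60, was the highest among the called carriers. The SLC25A44 protein carries branched-chain amino acids into mitochondria in mammals, and both fish copies were called higher. *slc25a44a* had 17.7, 19.2, 21.7 and 22.3 CPM in *miR-34a-/-*, against 16.3, 16.04, 14.7 and 20.4 CPM in wild-type (log2 fold change 0.29, SE 0.10, adjusted p = 0.025, edgeR). *slc25a44* had 13.5, 13.99, 15.3 and 11.6 CPM in *miR-34a-/-*, against 11.4, 9.81, 10.4 and 12.98 CPM in wild-type (log2 fold change 0.28, SE 0.12, adjusted p = 0.047, edgeR). Both overlapped, since wild-type replicate 4 lay inside the *miR-34a-/-* range for each. The *slc25a44a* call was lost without any of *miR-34a-/-* replicates 3 and 4 and wild-type replicates 1, 2 and 3, at adjusted p-values between 0.052 and 0.11. The *slc25a44* call was lost without any of *miR-34a-/-* replicates 1, 2 and 3 and wild-type replicates 1, 2 and 3, at adjusted p-values between 0.061 and 0.15. Neither was called by DESeq2, with adjusted p-values of 0.076 for *slc25a44a* and 0.13 for *slc25a44*. The carriers *slc25a29* (ENSDARG00000057352), for basic amino acids, and *slc25a38* (ENSDARG00000074533), for glycine, were not called, with log2 fold changes of -0.16 (SE 0.15) for *slc25a29* and -0.15 (SE 0.10) for *slc25a38*.

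*slc25a20*, the carnitine-acylcarnitine carrier that brings fatty acids to the site of their oxidation, was higher. It had 81.6, 75.5, 76.3 and 81.5 CPM in *miR-34a-/-*, against 66.8, 53.7, 66.7 and 63.8 CPM in wild-type. Its libraries did not overlap (log2 fold change 0.33, SE 0.06, adjusted p = 0.00010, edgeR). Its relative *slc25a47* was near the filter, at 1.78 ± 0.375 CPM in *miR-34a-/-* and 1.16 ± 0.443 CPM in wild-type (SD, n = 4 each), and was not called.

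The cofactor carriers were the largest group, with 10 of 11 genes tested, and 4 were higher, 1 was lower and 5 were not called. Of all genes tested, 45.4% were called, 23% higher and 22.4% lower, so so few calls give no direction for the cofactor carriers. Their summed level was 193 ± 4.33 CPM in *miR-34a-/-* and 162 ± 3.08 CPM in wild-type (SD, n = 4 each), with every *miR-34a-/-* sum above every wild-type sum. Almost all of this difference came from the 4 genes called higher. Sums without overlap were not particular to cofactor carriers. The ADP/ATP, carnitine, amino acid (basic, branched-chain and small) and uncertain substrate groups also had higher sums without overlap. Nearly all of the ADP/ATP sum was *slc25a5*. In *miR-34a-/-*, *slc25a20* made up 78.7 of 81.0 CPM of the carnitine sum, and *slc25a55a* 298 of 310 CPM of the uncertain substrate sum. These 3 sums thus repeat the results of single genes. The aspartate and glutamate, uncoupling-like and pyrimidine nucleotide groups had lower sums without overlap. The first 2 of these depend on how genes were grouped. *slc25a55a*, with a glutamate carrier symbol as a synonym, was left out of the aspartate and glutamate group. It averaged 298 CPM in *miR-34a-/-* and 266 CPM in wild-type. The uncoupling protein gene *ucp2*, at 959 CPM in *miR-34a-/-* and 660 CPM in wild-type, was left out of the uncoupling-like group. *slc25a39*, which imports glutathione, had 77.2, 80.1, 81.0 and 80.1 CPM in *miR-34a-/-*, against 64.1, 68.7, 60.5 and 66.2 CPM in wild-type (log2 fold change 0.30, SE 0.05, adjusted p = 6.3e-05, edgeR). *slc25a16*, related to the coenzyme A carriers, had 30.7, 35.4, 33.5 and 35 CPM in *miR-34a-/-*, against 29.1, 26.9, 26.6 and 25.96 CPM in wild-type (log2 fold change 0.31, SE 0.07, adjusted p = 0.0010, edgeR). The libraries did not overlap for either gene. *slc25a17*, which in mammals sits in the peroxisomal membrane and carries coenzyme A, FAD and NAD, had 8.45, 9.45, 10.1 and 9.98 CPM in *miR-34a-/-*, against 6.73, 8.02, 7.21 and 8.09 CPM in wild-type (log2 fold change 0.34, SE 0.12, adjusted p = 0.025, edgeR). Its libraries did not overlap, but the call was lost without *miR-34a-/-* replicate 4, wild-type replicate 1 or wild-type replicate 3 (adjusted p between 0.067 and 0.073) and under DESeq2 (adjusted p = 0.10). Of the cofactor carriers not called, 4 were *slc25a26*, for S-adenosylmethionine, *slc25a40*, for glutathione, *slc25a42*, for coenzyme A, and *slc25a51b*, for NAD, with log2 fold changes between -0.23 and 0.27.

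Both copies of the folate or FAD carrier were called, in opposite directions. *slc25a32* had 30.2, 28.6, 28.2 and 29.2 CPM in *miR-34a-/-*, against 20.7, 21.04, 23.04 and 18 CPM in wild-type. It was higher with a wide gap between the genotypes (log2 fold change 0.48, SE 0.08, adjusted p = 2.4e-05, edgeR). *slc25a32b* had 1.88, 2.09, 2.44 and 2.43 CPM in *miR-34a-/-*, against 2.05, 3.40, 3.69 and 4.88 CPM in wild-type (log2 fold change -0.64, SE 0.23, adjusted p = 0.026, edgeR). Wild-type replicate 1 lay inside the *miR-34a-/-* range, and the call was lost without *miR-34a-/-* replicate 1 or 2 or wild-type replicate 3 or 4 (adjusted p between 0.057 and 0.11) and under DESeq2 (adjusted p = 0.085).

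Carriers of pyrimidine nucleotides supply the precursors of mitochondrial DNA and RNA. Of their 3 genes, 2 were called lower, where 22.4% of all genes tested were lower, and 3 genes are too few to give a direction. *slc25a36b* had 30.04, 30.98, 30.2 and 28.9 CPM in *miR-34a-/-*, against 42.2, 39.9, 42.1 and 40.6 CPM in wild-type (log2 fold change -0.46, SE 0.07, adjusted p = 2.1e-06, edgeR), the smallest adjusted p-value among the *slc25a* genes. *slc25a36a* had 6.88, 5.72, 4.52 and 5.12 CPM in *miR-34a-/-*, against 8.79, 8.02, 10.1 and 7.54 CPM in wild-type (log2 fold change -0.65, SE 0.15, adjusted p = 0.00074, edgeR). Both copies were lower without overlap. *slc25a33*, 1 of the 5 carriers with the highest mean CPM, had 152, 144, 144 and 155 CPM in *miR-34a-/-*, against 150, 155, 141 and 144 CPM in wild-type. The genotypes overlapped throughout and it was not called (log2 fold change 0.01, SE 0.05, adjusted p = 0.83, edgeR).

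The iron carriers, or mitoferrins, import iron for heme and iron-sulfur clusters. *slc25a37*, the mitoferrin of red cell precursors, had 2.92, 2.27, 3.79 and 1.92 CPM in *miR-34a-/-*, against 3.77, 4.24, 4.05 and 3.21 CPM in wild-type. It was called lower (log2 fold change -0.56, SE 0.21, adjusted p = 0.033, edgeR), with *miR-34a-/-* replicate 3 inside the wild-type range. The call was lost without any of *miR-34a-/-* replicates 2 and 4 and wild-type replicates 1, 2 and 3 (adjusted p between 0.050 and 0.16), and under DESeq2 (adjusted p = 0.13). The more general mitoferrin *slc25a28* averaged 12.8 ± 1.26 CPM in *miR-34a-/-* and 14.1 ± 0.603 CPM in wild-type (SD, n = 4 each) and was not called.

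*slc25a46*, whose protein lies in the outer membrane and bears on mitochondrial fusion and fission, averaged 3.33 ± 0.713 CPM in *miR-34a-/-* and 4.24 ± 0.593 CPM in wild-type (SD, n = 4 each) and was not called (log2 fold change -0.41, SE 0.19, adjusted p = 0.084, edgeR). Of the 5 carriers grouped as uncertain in substrate, 3 were tested. *slc25a55a*, which RefSeq lists with a glutamate carrier symbol as its synonym, had 303, 294, 291 and 305 CPM in *miR-34a-/-*, against 262, 285, 267 and 251 CPM in wild-type. It was higher without overlap (log2 fold change 0.16, SE 0.04, adjusted p = 0.0023, edgeR). *slc25a34* and *slc25a43* were not called, with log2 fold changes of 0.49 (SE 0.23) for *slc25a34* and 0.04 (SE 0.14) for *slc25a43*.

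**Figure D2:**
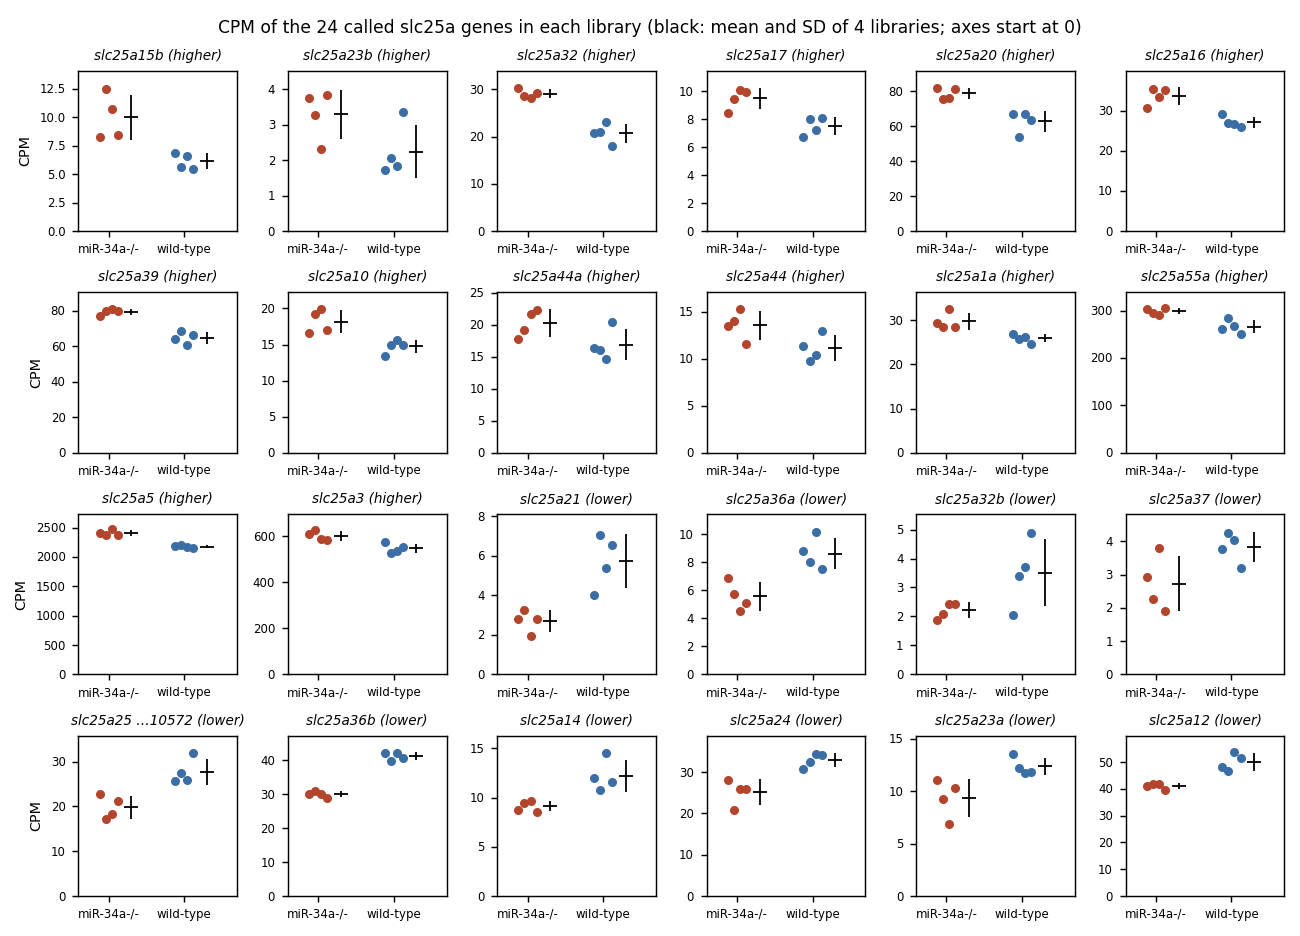
CPM (y axis, starting at 0) of the 24 called carrier genes in each library, with *miR-34a-/-* in red on the left and wild-type in blue on the right of each panel and the mean and SD of 4 libraries in black. The 14 higher genes come first and the 10 lower genes after them, each in order of fold change. In 19 panels the genotypes do not overlap, and in the 5 panels of *slc25a23b*, *slc25a44a*, *slc25a44*, *slc25a32b* and *slc25a37* at least 1 library lies inside the range of the other genotype.

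The share of a pair's counts that falls on 1 copy does not depend on how the libraries are scaled. Of the 6 carrier numbers with 2 tested copies, *slc25a23* and *slc25a32* had copies called in opposite directions. *slc25a23a* took 74.6%, 73.9%, 74.7% and 72.9% of the counts of both *slc25a23* copies in *miR-34a-/-*, against 88.8%, 85.5%, 86.5% and 78.0% in wild-type. *slc25a32* took 94.2%, 93.2%, 92.0% and 92.3% of the counts of both *slc25a32* copies in *miR-34a-/-*, against 91.0%, 86.1%, 86.2% and 78.7% in wild-type. Neither share overlapped between the genotypes, and the wild-type libraries were more spread out in both. Each had a two-sided exact permutation p of 0.0286, the smallest that 4 libraries against 4 allow, and 0.0857 after Benjamini-Hochberg adjustment over the 6 pairs, so neither passed. For the other 4 pairs the genotypes overlapped. The gene under the symbol *slc25a1* took 65.9% in *miR-34a-/-* and 71.1% in wild-type on average, beside *slc25a1a*, and *slc25a25* (ENSDARG00000010572) took 66.9% in *miR-34a-/-* and 72.9% in wild-type, beside its second copy. *slc25a36a* took 15.6% in *miR-34a-/-* and 17.2% in wild-type, and *slc25a44* took 40.2% in *miR-34a-/-* and 39.9% in wild-type. Their exact permutation p-values lay between 0.0571 and 0.886. The counting was done by the study, whose text does not say how reads on similar copies or on overlapping genes were divided.

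**Figure D3:**
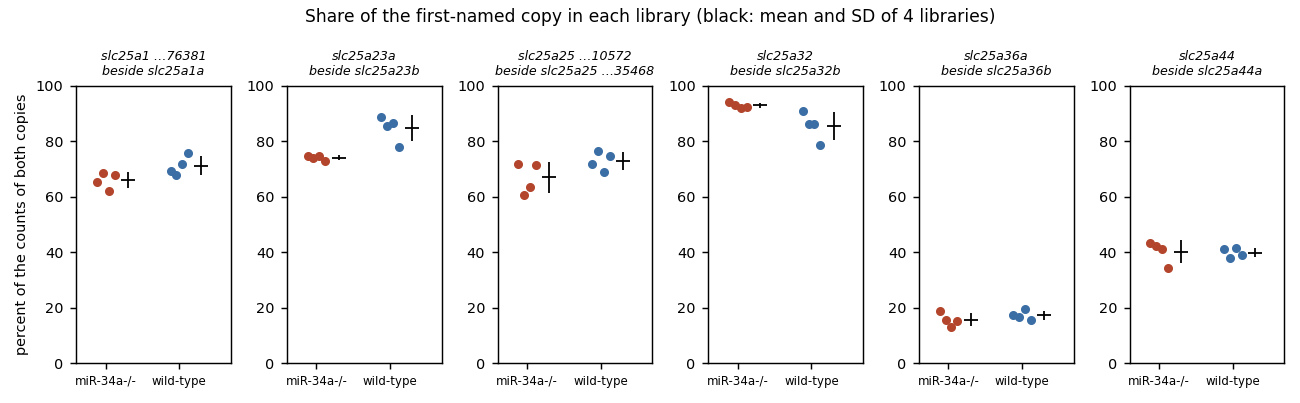
Percent of the counts of both copies (y axis, 0 to 100) that fell on the first-named copy, for the 6 carriers with 2 tested copies. Each point is a library, *miR-34a-/-* in red on the left and wild-type in blue on the right, with the mean and SD of 4 libraries in black. The *slc25a23a* share is lower in every *miR-34a-/-* library and the *slc25a32* share is higher in every *miR-34a-/-* library, while the other 4 pairs overlap.

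The other 17 carriers were too low to be tested, and 1 of them, *slc25a29* (ENSDARG00000098849), had no read in any library. The lack of reads at this depth does not show that its transcript was absent. Of the 16 detected but untested genes, 6 never exceeded 3 counts in a library: *slc25a22b*, *slc25a10* (ENSDARG00000097890), *slc25a15a*, *slc25a1* (ENSDARG00000080000), *slc25a38* (ENSDARG00000059805) and *slc25a6*. A difference between genotypes was not detectable for them at this depth. The most counts among untested carriers were those of *slc25a55b*, a copy of uncertain substrate, with 6, 4, 2 and 3 counts in *miR-34a-/-*, against 18, 15, 11 and 10 counts in wild-type. All *miR-34a-/-* libraries lay below all wild-type libraries, by count and by CPM. Fitted without the filter, it differed by -2.03 on the log2 scale (SE 0.44, adjusted p = 3.0e-05, edgeR), and DESeq2 gave an adjusted p of 0.0016. Its sister copy *slc25a55a* was called higher, as described with its group. The 9 other untested carriers with more than 3 counts in some library were *slc25a24l*, *slc25a35*, *slc25a27*, *slc25a3* (ENSDARG00000027424), *slc25a48*, *slc25a51a*, *slc25a47b*, *slc25a4* and *slc25a13*, and none was called without the filter. The lowest adjusted p among these 9 was 0.086 in edgeR and 0.18 in DESeq2, both for *slc25a51a*, the second copy of the NAD carrier.

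**Figure D4:**
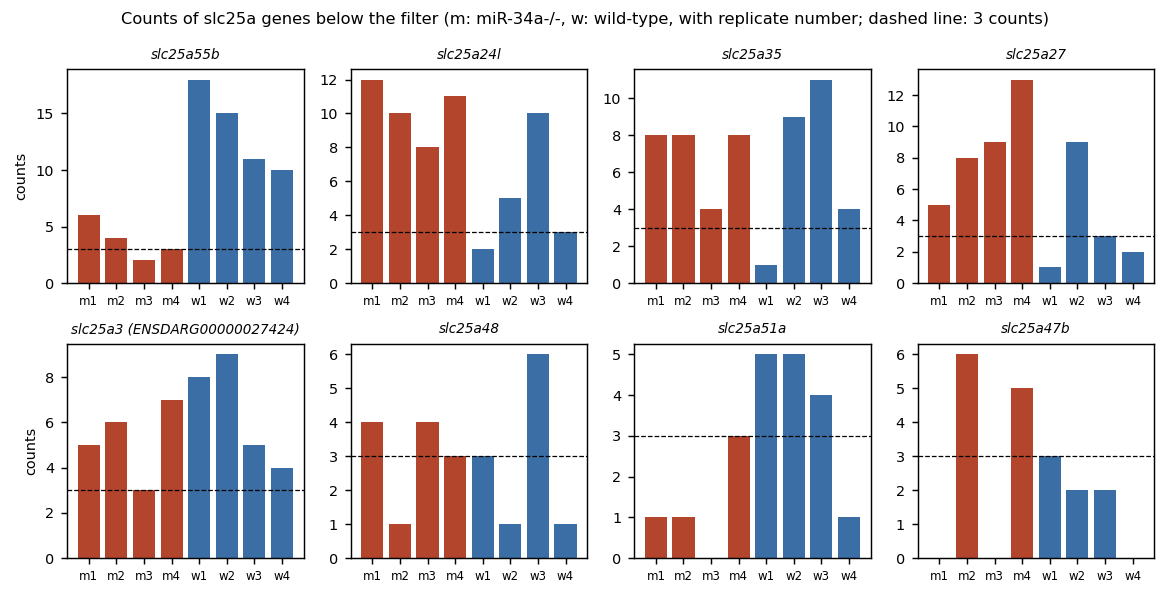
Counts (y axis) in each library of the 8 untested carrier genes with the most counts, *miR-34a-/-* libraries in red on the left and wild-type libraries in blue on the right, with replicate numbers under the bars and a dashed line at 3 counts. The *slc25a55b* bars are all shorter in *miR-34a-/-*, at 2 to 6 counts, than in wild-type, at 10 to 18 counts. The bars of the other 7 genes overlap between the genotypes.

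The study's list of predicted miR-34 targets in fish, held here only in part, names 3 carriers. MicroRNAs bind such transcripts and lower their level or their translation. *slc25a23b* and *slc25a44a* were called higher, as were 23% of all genes tested. Both had overlapping libraries, and each call was lost when any 1 of 5 libraries was left out. Under DESeq2 neither was called (adjusted p = 0.13 for *slc25a23b* and 0.076 for *slc25a44a*). *slc25a26*, the carrier of the methyl donor S-adenosylmethionine, had 5.01, 4.72, 5.37 and 6.78 CPM in *miR-34a-/-*, against 3.77, 5.38, 4.49 and 4.75 CPM in wild-type, and was not called (log2 fold change 0.27, SE 0.17, adjusted p = 0.19, edgeR). No overlap with the list was tested.

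Genes that work beside the carriers were read from the same fit. Of 36 symbols listed, 28 were found, as 30 genes, of which 27 were tested, and 6 were higher, 7 lower and 14 not called, where 45.4% of all genes were called. The uncoupling protein gene *ucp2* belongs to the carrier family under another name. It had 943, 951, 936 and 1005 CPM in *miR-34a-/-*, against 668, 681, 629 and 662 CPM in wild-type. Its libraries were far apart (log2 fold change 0.54, SE 0.04, adjusted p = 3.1e-12, edgeR), and no *slc25a* gene had an adjusted p-value as small. Carriers enter the inner membrane through the TIM22 complex, after receptors and a channel of the outer membrane. Among 12 tested import genes, 3 were higher, 3 lower and 6 not called. *timm29*, a TIM22 subunit, had 13.6, 13.8, 14.7 and 14.3 CPM in *miR-34a-/-*, against 8.56, 9.34, 8.18 and 6.84 CPM in wild-type (log2 fold change 0.76, SE 0.11, adjusted p = 3.3e-06, edgeR). *timm22*, the channel subunit of the complex, had 4.80, 5.90, 5.74 and 4.99 CPM in *miR-34a-/-*, against 8.79, 6.60, 7.04 and 6.70 CPM in wild-type (log2 fold change -0.45, SE 0.15, adjusted p = 0.015, edgeR). Subunits of 1 complex were thus called in opposite directions, each without overlap, although the *timm22* call was lost without wild-type replicate 1 (adjusted p = 0.071) and under DESeq2 (adjusted p = 0.066). The receptor gene symbol *tomm20a* stands for 2 genes, which were called in opposite directions. The gene ENSDARG00000103163 had 54.4, 56.0, 58.1 and 53.6 CPM in *miR-34a-/-*, against 88.4, 79.5, 80.8 and 80.1 CPM in wild-type (log2 fold change -0.57, SE 0.06, adjusted p = 3.2e-09, edgeR). The gene ENSDARG00000090656 had 3.96, 5.36, 4.40 and 4.48 CPM in *miR-34a-/-*, against 2.85, 2.17, 3.87 and 3.21 CPM in wild-type (log2 fold change 0.59, SE 0.19, adjusted p = 0.015, edgeR). Neither overlapped, but the call of ENSDARG00000090656 was lost without *miR-34a-/-* replicate 2 (adjusted p = 0.057) or wild-type replicate 2 (adjusted p = 0.078) and under DESeq2 (adjusted p = 0.064).

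Of 6 tested carriers of the inner membrane outside the family, 3 were lower and 0 higher in *miR-34a-/-*, where 22.4% of all genes were lower and 23% higher. These carriers include the sideroflexins, of which some carry serine in mammals. *sfxn2* had 15.9, 17.3, 19.5 and 18.4 CPM in *miR-34a-/-*, against 26.6, 28.7, 27.3 and 26.5 CPM in wild-type (log2 fold change -0.62, SE 0.08, adjusted p = 8.2e-07, edgeR). *sfxn3* had 2.09, 1.64, 1.71 and 1.28 CPM in *miR-34a-/-*, against 3.31, 3.21, 2.90 and 2.79 CPM in wild-type (log2 fold change -0.90, SE 0.23, adjusted p = 0.0021, edgeR). Both were lower without overlap. Of the 3 outer membrane channel genes, 2 were higher and 1 was not called. Of 4 tested enzymes of the malate-aspartate shuttle, 1 was lower and 3 were not called.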

How the data were processed

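RNA-seq of whole zebrafish embryos at 8 hpf was analysed in 4 *miR-34a-/-* and 4 wild-type libraries. Reads of polyadenylated RNA were trimmed for quality by the authors (Trim Galore 0.4.4) and aligned to danRer11 (STAR 2.7.8), per the labels and methods. The deposited values are raw counts of reads per Ensembl gene. The counting program, annotation release and use of strand are not given in the sources used here, so reads of overlapping genes or similar copies may be shared. The labels number the libraries as replicates without saying whether they came from separate clutches. The p-values set the difference between genotypes against the spread between these libraries, and may not cover the spread between clutches.

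Gene symbols came from a table of gene names by Ensembl ID, and 6 copy letters from the study's own lists. Genotypes were compared in edgeR 4.0.16 (R 4.3.3) by its quasi-likelihood test, fitting only genotype after filterByExpr and TMM scaling, and p-values were adjusted by the Benjamini-Hochberg method for all 13842 genes tested. Fold changes are *miR-34a-/-* over wild-type. SE is the fold change divided by the square root of F. CPM used total counts times the TMM factor, and 3 counts or fewer was taken as the floor. Shares of copies were compared by two-sided exact permutation tests over 70 assignments. The pair list, meant for copies lettered a and b, was widened to copies sharing a carrier number. The test was tested on simulated data.

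The carriers and lists were chosen with earlier results of these data known. Named with values were the 10 largest rises and 10 largest falls, the 5 highest mean CPM, oppositely called copies, predicted targets, and the 3 largest rises and falls among partner genes. *slc25a1a*, *slc25a55b*, *timm22*, single marker genes and carriers that were not called were named outside this rule, after their values were seen. Alternatives were RLE and upper-quartile factors, no filter, a filter of 1 CPM in 4 libraries, the likelihood ratio test, DESeq2 1.42.0, a replicate block and leaving out each library. Between pairs of libraries, the chi-square per gene was 1.59 to 5.80 within a genotype and 13.1 to 26.6 between genotypes, where about 1 is sampling noise. Every pair thus differed by more than sampling noise, and all libraries were kept. These values cannot show whether libraries of a genotype shared a clutch or a preparation. The values of 1 carrier that was not called are not reported here. Figures used Python 3.11.15 and matplotlib 3.10.9.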

Additional observations from a re-analysis of the deposited data

How the results depend on the processing

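Counts of carriers kept to within 1.5 times of 14 higher and 10 lower under RLE factors (14 and 10), upper-quartile factors (12 and 11), no filter (13 and 12), a filter of 1 CPM in 4 libraries (14 and 10) and the likelihood ratio test (15 and 11). DESeq2 gave 8 higher and 9 lower and called 28% of all genes it tested. It kept 16 of the 24 calls. Leaving out each library in turn gave 9 to 14 higher and 9 to 12 lower. Calls lost in these fits kept their direction. Of the 26 carriers and 7 partner genes followed through these fits, only *slc25a33*, which was not called, changed sign, to -0.0055 with upper-quartile factors and over a range of -0.013 to 0.038 when libraries were left out, and its cause was not tested. With upper-quartile factors the median log2 fold change of all genes was -0.021. Deviations of same-numbered libraries correlated at -0.032 to 0.0077, and those of differently numbered libraries at -0.070 to 0.087. Whether same-numbered libraries shared a clutch or a preparation was not tested. With a replicate block 12 carriers were higher and 10 lower, and 21 of the 24 calls remained, without *slc25a44*, *slc25a37* and *slc25a23b*. No pair of copies passed adjustment, and with 6 pairs none could unless at least 4 reached the smallest p of 0.0286. A minimum of 1 CPM in 4 libraries removed no pair. Of the 16 detected but untested carriers, only *slc25a55b* was called without the filter. No carrier had a library outside Dixon's limit in any of 84 groups of 4, where chance would give about 4.2.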
